A study of Mus musculus with 4 samples.

Results

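The 43 genes described here make up the machinery that takes up, activates and breaks down fatty acids in mitochondria and peroxisomes, together with Bdh1 of ketone body metabolism. They were chosen by name, with older names of the same gene accepted. All 43 were found on the array, on 62 probes, among 27975 gene names. Eci1 and Eci2 were found through the older names Dci and Peci. Of the 43 genes, 42 gave a signal well above background on at least 2 of the 4 arrays and were among the 16451 genes tested. Acot3 did not, on any array. The cells were induced hepatocyte-like (iHep) cells, made to resemble hepatocytes from cells that the labels call MDFs, on a C57BL/6 background. They were compared between 2D and 3D culture, in 2 independent preparations named iHep-1 and iHep-2, with 1 array for each culture in each preparation. A plus sign follows the preparation's name in the 2D titles and not in the 3D titles; no source explains it, and whatever it marks cannot be told apart from the culture. Other features of the cultures, such as their age, medium or matrix, are not analysed here.

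Fatty acids taken up by hepatocytes are bound there by carrier proteins, are joined to coenzyme A, and pass into mitochondria as carnitine esters. In mitochondria they are shortened by repeated cycles of dehydrogenation, hydration, a further dehydrogenation and thiolytic cleavage. Peroxisomes run a parallel cycle on very long and branched chains and on bile acid precursors. In liver, the acetyl-CoA produced can be turned into ketone bodies, and many genes of both organelles are targets of a fatty acid sensing nuclear receptor of the PPAR family that binds direct repeats of AGGTCA with a spacer of a single base.

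Promoter sequences are shown for the 3 genes whose 3D level exceeded the 2D level at least 2-fold in each preparation (Fabp1, Ehhadh and Ech1), and for Hadhb, whose start lies beside that of its partner subunit Hadha. Each is the 250 bases before the gene's start in RefSeq on GRCm38.p6, 5′ to 3′ in the gene's direction: Fabp1 at chr6:71199629-71199878, plus strand; Ehhadh at chr16:21787835-21788084, minus strand; Ech1 at chr7:28825088-28825337, plus strand; Hadhb at chr5:30155003-30155252, plus strand. Capitals mark a match to the receptor motif, written here as AGGTCA, any base, AGGTCA, and read on the opposite strand.
Fabp1: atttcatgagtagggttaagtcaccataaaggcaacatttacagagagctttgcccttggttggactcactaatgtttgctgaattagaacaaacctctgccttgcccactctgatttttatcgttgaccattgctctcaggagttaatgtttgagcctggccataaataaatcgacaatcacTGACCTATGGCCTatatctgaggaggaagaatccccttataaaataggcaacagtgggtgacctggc
Ehhadh: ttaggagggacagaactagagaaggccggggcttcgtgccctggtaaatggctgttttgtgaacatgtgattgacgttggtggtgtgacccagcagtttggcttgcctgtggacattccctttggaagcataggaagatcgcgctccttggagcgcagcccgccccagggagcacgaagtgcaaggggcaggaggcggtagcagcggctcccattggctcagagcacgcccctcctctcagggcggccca
Ech1: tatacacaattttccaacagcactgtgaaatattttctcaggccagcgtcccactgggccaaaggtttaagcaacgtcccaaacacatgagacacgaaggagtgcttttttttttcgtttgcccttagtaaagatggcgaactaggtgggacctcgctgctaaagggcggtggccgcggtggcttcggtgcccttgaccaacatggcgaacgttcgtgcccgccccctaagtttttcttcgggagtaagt
Hadhb: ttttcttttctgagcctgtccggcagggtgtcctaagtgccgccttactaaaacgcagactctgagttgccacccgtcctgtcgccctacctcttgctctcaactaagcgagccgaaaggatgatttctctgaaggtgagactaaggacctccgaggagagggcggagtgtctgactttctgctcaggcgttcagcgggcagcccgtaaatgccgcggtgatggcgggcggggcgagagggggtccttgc
The window of Fabp1 held AGGCCATAGGTCA on its minus strand, which differs from the motif at 1 of its 12 fixed bases and begins 67 bases before the start. The windows of Ehhadh and Ech1 held no match with up to 2 mismatches. The starts of Hadha and Hadhb lie 273 bases apart on opposite strands, and their windows share 228 bases (chr5:30155003-30155230). RefSeq windows of 300 bases, 250 before the start and 50 after it, were at hand for 37 of the 43 genes. Allowing up to 2 mismatches on either strand, 6 of their 42 windows (14.3%) held the motif, against 1268 of 32851 windows of all genes (3.86%). The other 5 matching windows, each with 2 mismatches, belonged to Acot4 (CGGCCAAAGGTCA), Acox2 (AGGACAGAGGTGA), Echs1 (AGGTCACGGGTCC), Etfa (AGGGCAAAGGTAA) and Slc25a20 (AGGTGAAAGGTCG). AGGTCA itself, which overlaps the longer motif, was in 10 member windows (23.8%) and in 16.3% of all windows. These matches describe letters in short windows and were not tested as binding sites.

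Levels below are log2 of the background-corrected signal minus the 75th percentile of the same array, so a level of 0 is the signal at that percentile and a difference of 1 is 2-fold relative to the other genes. A probe's level also depends on its own sequence, and levels of different genes are therefore not set against each other. The 75th percentile of signal lay between 399 and 617 on the 4 arrays, between 23061 and 24413 probes were well above background, and no spot was saturated. Array pairs correlated across genes with r of 0.93 to 0.97, and the lowest values were those between preparations. All 4 shared a slide and a scan. Their small number limits the precision: with 2 arrays against 2, an exact permutation test of a single gene cannot go below p = 0.333 (two-sided). Because whole cultures were measured, fewer cells of a type and less RNA per cell cannot be told apart.

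Set against the other genes of an array, most of these genes were higher in 3D culture. The sign of a gene's own difference depends on the scale, and with spike-in controls as the scale 34 of the 42 mean differences changed sign under a shift common to all genes. After scaling to the 75th percentile, 33 of the 42 tested members were higher in 3D in both preparations, against 33.3% of all tested genes, and 0 were lower in both, against 32.8%. The median difference over the 42 was 0.28 in iHep-1 and 0.90 in iHep-2, or 0.58 as the mean of both, and that over all genes was -0.02, 0.04 and 0.02. Both 3D arrays lay above both 2D arrays in 28 members, against 20.0% of all genes, and below them in 0, against 21.5%. A 3D level at least 2-fold above 2D in each preparation was found for 3 members, Ehhadh, Fabp1 and Ech1, against 4.26% of all genes; 0 were as far below in each, against 2.12%, and 0 were 2-fold or more apart in opposite directions, against 0.808%.

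No difference passed the test. Limma with Benjamini-Hochberg adjustment over the 16451 genes called 0 genes in either direction (0% of those tested) at an adjusted p of 0.05, and the smallest adjusted p of a member was 0.684. With the preparation as a block, the calls were also 0 and the smallest adjusted p of a member was 0.237. Unadjusted limma p-values under 0.05 were found for 7 members, all higher in 3D, against 4.07% of all genes higher and 2.97% lower. Their number was 2 without 2D of iHep-2, 2 without 3D of iHep-2, 0 with spike-in scaling and 11 with normexp background correction. The block gave 8 such members, again all higher (8.35% of all genes higher, 4.87% lower). The 7 without the block were Ech1, Ehhadh, Cpt2, Abcd3, Fabp1, Acaa1b and Eci1. They were 3 of the 14 tested peroxisomal members, 2 of the 21 mitochondrial and 2 of the 7 of both or other places.

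The direction depends on what the arrays are scaled to. Scaled instead to the 6 spike-in control probes, the median of all genes shifted to -1.18 and that of the members to -0.62. Then 0 members were higher in 3D in both preparations, against 2.49% of all genes. The log2 spike-in signal was 2.00 higher on the 3D than on the 2D array of iHep-1 and 0.06 lower in iHep-2, and the file headers give a spike-in fit within range for 1 of the 4 arrays. Relative to the median of all genes, the members' median was 0.56 higher in 3D, and 38 of the 42 lay above that median. Both values are the same under either scaling by construction, since the mean differences of all genes shift alike. All directions given below are therefore set against the array's remaining genes, and the value of each member with spike-in scaling is given in the text or with the processing alternatives.

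**Figure D1:**
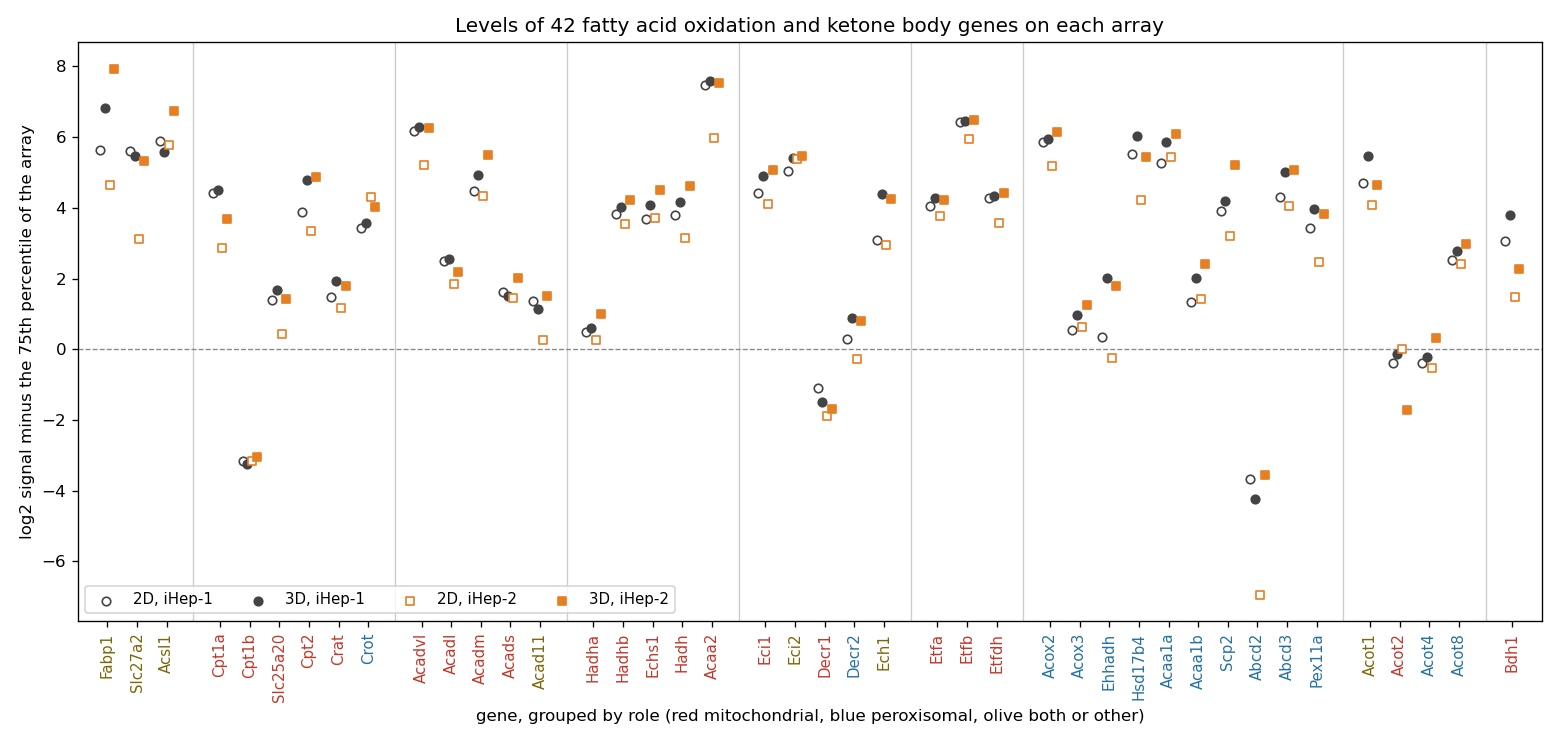
Level of each of the 42 tested genes on each array (vertical axis, log2 signal minus the array's 75th percentile), grouped by role and with gene names coloured by organelle. Open symbols are 2D, filled symbols 3D, circles iHep-1 and squares iHep-2. The open square, 2D of iHep-2, is the lowest of the 4 points in 33 genes; with spike-in scaling the 3D points would shift down by 1.20 on average relative to the 2D points.

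The 3 genes of uptake, binding and activation had the widest gap between preparations among the roles, with median differences of -0.12 in iHep-1 and 2.20 in iHep-2. Fabp1, the liver fatty acid binding protein, stood at 5.63 (2D) and 6.82 (3D) within iHep-1, and at 4.65 (2D) and 7.94 (3D) within iHep-2. Both 3D levels were above both 2D levels, and within a preparation 3D was 2.28-fold (iHep-1) and 9.78-fold (iHep-2) higher. Its mean difference was 2.24 (SE 0.59, n = 2 per group, limma adjusted p = 0.684), or 1.04 with spike-in scaling. That scaling shifts each difference by -1.82 in iHep-1 and by -0.57 in iHep-2. The difference of Fabp1 in iHep-1, 1.19 before that shift, was then below 0, and that in iHep-2 stayed above 0. The Fabp1 probe lies at chr6:71154906-71154965 of mm9. The promoter window of Fabp1 held the closest match to the receptor motif, while those of Ehhadh and Ech1 held none. A link between motif and difference was not tested. Slc27a2, a fatty acid transporter that also activates very long chains, had levels of 5.60 and 5.48 in 2D and 3D within iHep-1 and of 3.13 and 5.32 in iHep-2. It was thus 4.58-fold higher in 3D of iHep-2, where the 2D array was low, and nearly level in iHep-1. Acsl1, the main long-chain acyl-CoA synthetase of liver, was 0.32 lower in 3D of iHep-1 and 0.95 higher in 3D of iHep-2. The groups overlapped for Slc27a2 and Acsl1. Without 2D of iHep-2 the mean difference of Slc27a2 was -0.20, and without 3D of iHep-2 that of Acsl1 was -0.26. Both values also take in the gap between preparations.

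In the carnitine shuttle, Cpt2 was higher in 3D without overlap between the groups, and for Cpt1a the groups overlapped. Cpt1a, the liver form of carnitine palmitoyltransferase 1 and the regulated entry step, had levels of 4.43 (2D) and 4.50 (3D) within iHep-1, and of 2.87 and 3.67 within iHep-2. The groups overlapped, since both arrays of iHep-2 lay below both arrays of iHep-1, and the mean difference was 0.43 (SE 0.69, limma adjusted p = 0.887). It was -0.35 without 2D of iHep-2, a value that takes in the gap between preparations. The probe of Cpt1a lies at chr19:3385374-3385433 of mm9, and its other kept probe gave 0.38. Cpt2, which turns acylcarnitines back into acyl-CoA, had levels of 3.88 and 4.79 in 2D and 3D within iHep-1 and of 3.35 and 4.87 in iHep-2. Its groups did not overlap and its mean difference was 1.21 (SE 0.29, limma adjusted p = 0.684), which spike-in scaling took to 0.015. Whether Cpt2 and Cpt1a differed from each other in their response was not tested. Slc25a20, the carrier that exchanges carnitine esters across the inner membrane, was 0.28 and 0.996 higher in 3D of iHep-1 and iHep-2, and Crat, which makes short-chain carnitine esters, 0.45 and 0.63. Crot, the peroxisomal enzyme for medium chains, was 0.14 higher in iHep-1 and 0.27 lower in iHep-2. Cpt1b, the muscle form, lay between -3.24 and -3.06 on all 4 arrays, with differences of -0.08 and 0.11. In all, 4 of the 6 shuttle genes were higher in both preparations, against 33.3% of all genes, and the median mean difference of the 6 was 0.49.

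The mitochondrial spiral itself was higher in 3D mostly in iHep-2. Among the 5 acyl-CoA dehydrogenases, which take the opening step at different chain lengths, the median difference was 0.08 in iHep-1 and 1.04 in iHep-2. Of these 5, 3 were higher in both, against 33.3% of all genes. Acadm, for medium chains, was 0.45 and 1.17 higher in 3D, with no overlap between groups. Acadvl, for very long chains, was 0.09 and 1.04 higher, and Acadl, for long chains, 0.08 and 0.33. Acads, for short chains, and Acad11, a family member that is found in mitochondria and peroxisomes, were 0.11 and 0.21 lower in 3D of iHep-1 and 0.58 and 1.23 higher in 3D of iHep-2.

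All 5 genes of the following hydratase, dehydrogenase and thiolase steps were higher in 3D in both preparations with no overlap, against 20% of all genes without overlap. Of these 5, 0 reached 2-fold in both, against 4.26% of all genes. Hadha and Hadhb, the subunits of the trifunctional protein that handles long chains and the pair that shares a promoter region, were 0.11 and 0.19 higher in iHep-1 and 0.74 and 0.69 higher in iHep-2. The mean differences of this pair were 0.43 and 0.44. Echs1, the short-chain enoyl-CoA hydratase, was 0.41 and 0.78 higher, and Hadh, the 3-hydroxyacyl-CoA dehydrogenase for shorter chains, 0.36 and 1.45. Acaa2, the thiolase that releases acetyl-CoA from shorter chains, had levels of 7.48 and 7.58 in 2D and 3D within iHep-1 and of 5.98 and 7.52 in iHep-2. The 3D level of Acaa2 in iHep-2 thus lay between both levels of iHep-1, which differed by 0.10, and the 2D array of iHep-2 was low.

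Electrons from the dehydrogenases pass through the electron transfer flavoprotein, made of the Etfa and Etfb products, to its oxidoreductase Etfdh. Etfb had levels of 6.44 and 6.46 in 2D and 3D within iHep-1 and of 5.96 and 6.48 in iHep-2, so that 3 arrays again lay close together and 2D of iHep-2 was lowest. Etfa was 0.23 and 0.45 higher in 3D of iHep-1 and iHep-2, and Etfdh 0.06 and 0.86. The median mean difference of these 3 genes, 0.34, was the smallest among the roles with more than 1 gene.

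Among the auxiliary enzymes, which reposition or reduce the bonds of unsaturated fatty acids, Ech1 showed the most even difference of all members. Ech1, a dienoyl-CoA isomerase found in mitochondria and peroxisomes, had levels of 3.08 and 4.39 in 2D and 3D within iHep-1 and of 2.94 and 4.25 in iHep-2. The 3D arrays were 2.48-fold higher in iHep-1 and 2.47-fold higher in iHep-2. Arrays of the same culture differed by 0.14 between preparations, and the mean difference of 1.31 had an SE of 0.22 (limma adjusted p = 0.684, with the block 0.277). The Ech1 probe lies at chr7:29616256-29616416 of mm9. With spike-in scaling its mean difference was 0.11, with 3D lower than 2D in iHep-1 and higher in iHep-2. Eci1, the mitochondrial enoyl-CoA isomerase, was 0.49 and 0.97 higher in 3D, and Eci2, which also works in peroxisomes, 0.37 and 0.08. Decr2, the peroxisomal dienoyl-CoA reductase, was 0.60 and 1.07 higher in 3D with no overlap. Its mitochondrial counterpart Decr1 was 0.39 lower in iHep-1 and 0.21 higher in iHep-2, with overlapping groups. The difference between both reductases was not tested.

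Of the 10 genes of peroxisomal oxidation and import, 9 were higher in 3D in both preparations (33.3% of all genes) and 8 were higher without overlap (20%). The median of the 10 was 0.53 in iHep-1 and 1.12 in iHep-2. Ehhadh, the L-bifunctional enzyme that hydrates and dehydrogenates in a single protein, had levels of 0.35 and 2.00 in 2D and 3D within iHep-1 and of -0.25 and 1.78 in iHep-2. Both 3D arrays were above both 2D arrays, and within a preparation 3D was 3.14-fold (iHep-1) and 4.09-fold (iHep-2) higher. The mean difference of Ehhadh was 1.84 (SE 0.31, limma adjusted p = 0.684, with the block 0.237), and 0.65 with spike-in scaling. Under that scaling 3D of Ehhadh was lower than 2D in iHep-1 and higher in iHep-2. The Ehhadh probe lies at chr16:21761914-21761973 of mm9. Hsd17b4, the D-bifunctional enzyme of the same steps, was 0.52 and 1.22 higher in 3D, but its 2D level in iHep-1 exceeded its 3D level in iHep-2.

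The oxidases and thiolases of the peroxisome stood on the same side as Ehhadh by smaller amounts. Acox2, which oxidises branched chains and bile acid precursors, was 0.09 and 0.96 higher in 3D of iHep-1 and iHep-2, and Acox3, a further branched-chain oxidase, 0.40 and 0.62. The thiolases Acaa1a and Acaa1b were 0.57 and 0.67 higher in iHep-1 and 0.66 and 0.98 in iHep-2. These thiolases are close copies of each other, so each probe may also read its neighbour's transcript, which was not tested. Scp2, which yields a thiolase for branched chains and a lipid carrier, was 0.28 higher in iHep-1 and 2.01 higher in iHep-2. Abcd3, a transporter that imports branched and bile acid CoA esters, was 0.71 and 1.02 higher, and its 3 probes gave mean differences of 0.79 to 0.87. Pex11a, which acts in the division and proliferation of peroxisomes, was 0.55 and 1.36 higher. No overlap was seen for these 7 genes.

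Abcd2, a peroxisomal importer of very long chains, was faint. Its level was -3.68 (2D) and -4.24 (3D) within iHep-1, and -6.94 and -3.56 within iHep-2. The lowest of these, 2D of iHep-2, was not well above background. The other kept probe of Abcd2 was well above background on all 4 arrays and gave a mean difference of -0.04 in place of 1.41, so that no direction was read from this gene.

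**Figure D2:**
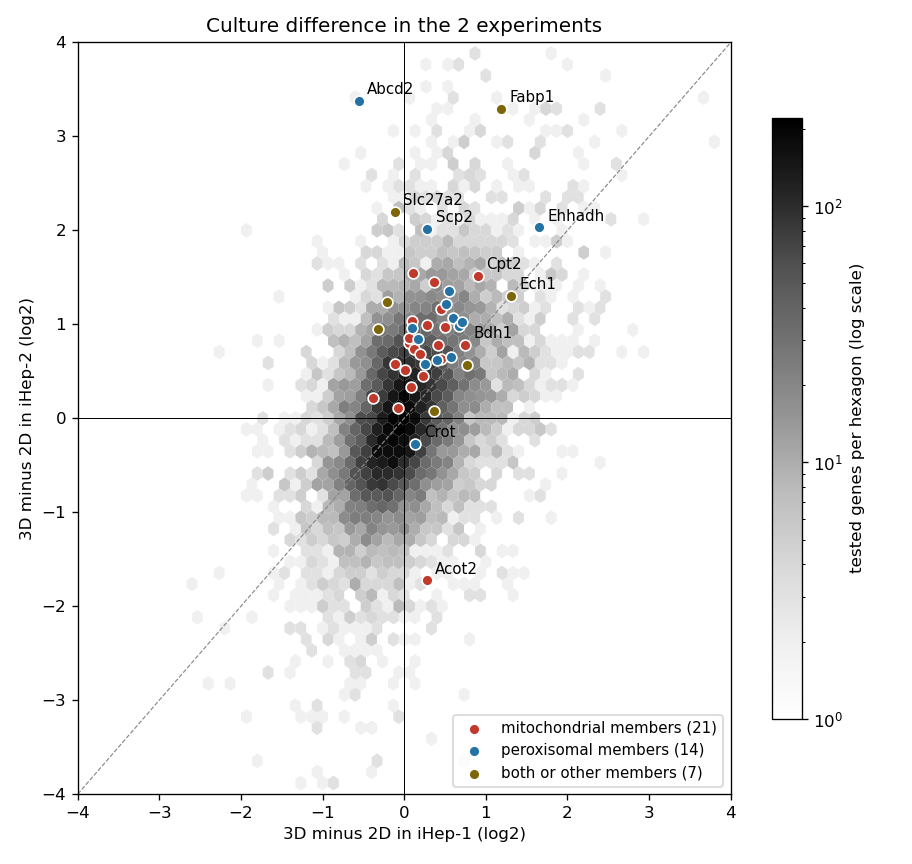
Difference between 3D and 2D in iHep-1 (horizontal axis, log2) against that in iHep-2 (vertical axis, log2); grey hexagons count all tested genes within ±4 on a log scale, and coloured points are the 42 members by organelle. Of the members, 33 have both differences above 0 and 37 lie above the dashed line of equal differences; spike-in scaling would move every point left by 1.82 and down by 0.57.

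Among the acyl-CoA thioesterases, which release free fatty acids from coenzyme A, no gene reached 2-fold higher in 3D in either preparation. Acot1, a form induced by fatty acids in liver, was 0.76 and 0.56 higher in 3D, with overlapping groups because both levels of iHep-2 were lower than the same culture of iHep-1. Acot4 and Acot8, both peroxisomal, were 0.17 and 0.25 higher in iHep-1 and 0.84 and 0.58 in iHep-2. Acot2, the mitochondrial form, had levels of -0.40 and -0.13 in 2D and 3D within iHep-1 and of -0.01 and -1.73 in iHep-2. It was the only member at least 2-fold lower in 3D in a preparation, by 1.73 in iHep-2, against 8.32% of all genes at least 2-fold lower there. Acot1 to Acot4 lie side by side on chromosome 12 and are close copies, and cross-reading of their probes was not tested.

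Bdh1, which interconverts acetoacetate and 3-hydroxybutyrate in the last step of ketone body formation, differed more between preparations than between cultures. Its levels were 3.06 and 3.81 in 2D and 3D within iHep-1 and 1.48 and 2.26 in iHep-2. The 3D arrays were 0.75 and 0.78 higher than the 2D arrays within a preparation, while iHep-2 lay 1.58 lower in 2D and 1.54 lower in 3D than iHep-1. The groups overlapped and the mean difference was 0.77 (SE 0.85, limma adjusted p = 0.828), a p which the block for preparation took to 0.362. Without 2D of iHep-2, or without 3D of iHep-1, the mean difference was -0.022 and -0.0053, values that take in the gap between preparations. The Bdh1 probe lies at chr16:31457378-31457437 of mm9, and the other kept probe gave 0.43. Bdh1 was the only member at least 2-fold lower in iHep-2 in both cultures, as were 5.74% of all genes, and 0 members were at least 2-fold higher there in both (5.12%).

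Grouped by organelle, the differences were larger for peroxisomal than for mitochondrial members on both preparations' medians. The 14 tested genes assigned to peroxisomes alone had a median of 0.46 in iHep-1 and 1.0 in iHep-2, or 0.83 as the mean. Of these 14, 12 were higher in both and 11 were higher without overlap, against 33.3% and 20% of all genes. The 21 mitochondrial genes had 0.19 and 0.78, or 0.46, with 17 higher in both and 14 without overlap, against the same shares. Of these 21, 0 reached 2-fold in both, against 4.26% of all genes. The 7 genes of both or other places had 0.37 and 1.23, or 0.66. The peroxisomal median includes Abcd2, from which no direction was read. With probes well above background on all 4 arrays, where its other probe stood for it, that median was 0.72, against 0.46 for mitochondrial members. With the mean of all kept probes the medians were 0.76 and 0.52. The difference between organelles was not tested, and the mean differences of single members ran from -0.73 to 2.24. Under spike-in scaling the medians were -0.74 for mitochondrial and -0.37 for peroxisomal members. That scaling shifts all genes alike and so cannot change their order.

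**Figure D3:**
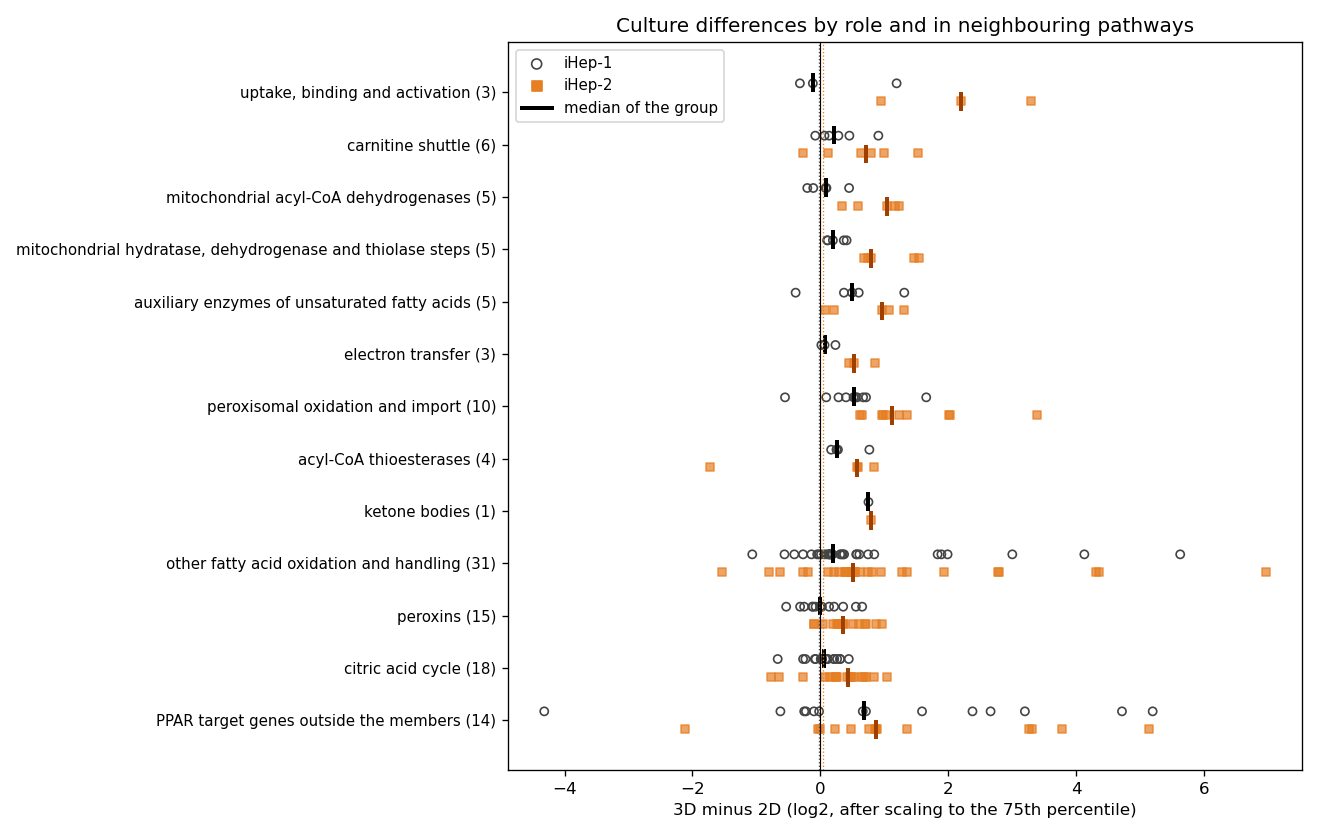
Difference between 3D and 2D (log2, after scaling to the 75th percentile) for each gene, by role of the members and for 4 neighbouring gene lists, with the number of tested genes in brackets. Open circles are iHep-1, filled squares iHep-2, bars the group medians and dotted lines the medians of all genes; the squares' medians lie to the right of the circles' in every group shown, and with spike-in scaling all circles would shift left by more than the squares.

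On levels set against the other genes of each array, the 2D array of iHep-2 had a large part in these values. It held the lowest of the 4 levels in 33 of the 42 members (78.6%), against 30.1% of all genes, and the 3D array of iHep-2 held the highest in 24 (57.1%), against 30.3%. Between preparations, 35 members had the lower 2D level in iHep-2 (53.7% of all genes), with a median difference of -0.51 from iHep-1, whereas 17 had the lower 3D level there (49.8% of all genes), with a median of 0.08. The difference between cultures was larger in iHep-2 than in iHep-1 for 37 members, against 52.3% of all genes. In iHep-1 alone, 35 members were higher in 3D (48.1% of all genes) and 3 were at least 2-fold higher (7.81%), while 0 were at least 2-fold lower (4.05%). In iHep-2 alone, 40 were higher (52.4%) and 16 at least 2-fold higher (12.7%). Without 2D of iHep-2, the members' median was 0.33 and that of the mitochondrial members 0.15, in place of 0.58 and 0.46, and that of the peroxisomal members 0.51 in place of 0.83. Without 2D of iHep-1 the members' median was 0.87 and the mitochondrial one 0.70. The fits behind these medians without an array had no block for preparation, so gaps between preparations enter them. Since each culture of each preparation is a single array, a feature of that array and a feature of that culture cannot be told apart. The arrays with the lowest and highest levels were not counted with spike-in scaling. Under that scaling the members' median difference was -1.54 in iHep-1, where 3D was then the lower culture, and 0.33 in iHep-2. The low place of 2D of iHep-2 is therefore given only for levels set against the array's other genes.

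**Figure D4:**
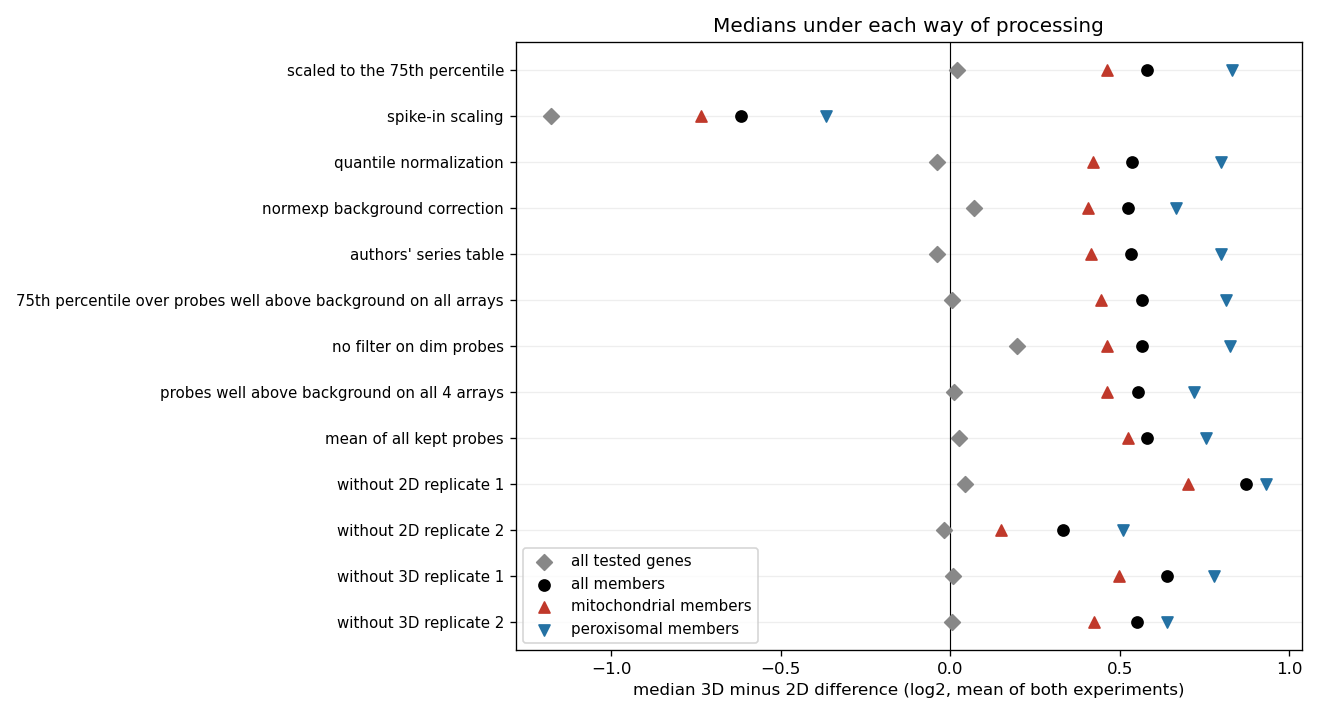
Median difference between 3D and 2D (horizontal axis, log2, mean of both preparations) for all tested genes, all members and members of each organelle under each way of processing (rows). The members' median lies to the right of that of all genes in every row, and all medians are below 0 in the row of spike-in scaling, where that of the members is -0.62.

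Neighbouring genes were counted from lists of other genes of the pathway. Of 32 other genes of fatty acid oxidation and handling, 31 were tested, 20 were higher and 1 lower in 3D in both preparations, and 5 of them 2-fold or more higher in each. Over all genes these shares were 33.3%, 32.8% and 4.26%. The median of the 31 was 0.31. The widest mean differences there were those of Slc27a5, the liver transporter that also activates bile acids, at 4.43 (1.89 in iHep-1 and 6.96 in iHep-2), and of Acacb, whose malonyl-CoA product inhibits entry through Cpt1a, at 3.65 (3.00 and 4.30). The 2D signal of Acacb in iHep-2 was not well above background, so its value of 4.30 and its mean are not exact. The limma adjusted p was 0.684 for both genes.

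Of 14 further known targets of the fatty acid sensing receptor, all tested, 7 were higher and 2 lower in both preparations, and 5 of them 2-fold or more higher in each. Over all genes these shares were 33.3%, 32.8% and 4.26%. Cyp4a14, a fatty acid omega-hydroxylase, stood 5.19 and 3.77 higher in 3D of iHep-1 and iHep-2, and Creb3l3, a liver transcription factor of fasting, 2.66 and 5.14 (limma adjusted p = 0.684 for both). The 2D signal of Cyp4a14 in iHep-2 was not well above background, so its value of 3.77 is not exact. The 2 targets lower in both were Fgf21 (-4.32 and -0.0039) and Vnn1 (-0.10 and -2.11). The 3D signal of Fgf21 in iHep-1 was not well above background, so its value of -4.32 is not exact. The median of the 14 targets was 0.75. The 15 peroxins, which build peroxisomes, had a median of 0.18, with 7 higher, 2 lower and 0 at least 2-fold apart in both preparations. Their 7 higher genes were not far from the 33.3% of all genes. Pex16 (0.66) and Pex6 (0.63) had the widest mean differences among them. The 18 genes of the citric acid cycle, which burns the acetyl-CoA, had a median of 0.25 with 12 higher and 2 lower (33.3% and 32.8% of all genes). The widest mean differences there were those of Idh2 (-0.72) and Ogdh (0.65). Spike-in scaling shifted every gene's mean difference by -1.20, which would take the medians of these 4 lists below 0.

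Marker genes were read beside these values. Of 10 hepatocyte markers, 9 were found on the array by name and 8 were tested; Cyp2e1 was not well above background on any array. The 8 had medians of 0.14 in iHep-1 and 1.75 in iHep-2, so that, against other genes, their median difference lay mainly in iHep-2. Of the 8, 4 were higher in 3D in iHep-1 and 8 in iHep-2 (48.1% and 52.4% of all genes). Cps1 was 2.59 and 2.33 higher in iHep-1 and iHep-2, and G6pc 1.53 and 6.75. Alb and Apoa1, which encode albumin and a lipoprotein, were at 8.81 to 9.57 and at 7.39 to 9.02 on the 4 arrays. Cyp3a11 was at 5.64 to 8.52, Ttr at 4.29 to 6.15 and Tat at 3.26 to 5.57. Hnf4a was at 0.93 to 2.00, Cps1 at 0.21 to 5.42 and G6pc at -4.57 to 2.50. Of 10 fibroblast and mesenchymal markers 4 were tested, with medians of 0.88 and -0.87, while Thy1, Fbn1, Lum and Dcn were not well above background on any array. The 6 biliary markers had medians of 1.12 and 0.04. Of 5 fat cell markers, Adipoq, Lep, Plin1 and Cfd were not well above background on any array, while Fabp4 was on all 4, at 3.50 (2D) and 5.49 (3D) within iHep-1 and at 0.10 and -1.43 within iHep-2. Of 6 muscle markers, Ckm and Myl2 were not well above background on any array. Acta1, Myh6, Tnnt2 and Myh7 were tested, with Myh7 at 2.06 to 4.14 and medians of the 4 differences of -0.45 in iHep-1 and -0.997 in iHep-2. Of 4 blood cell markers Ptprc was not well above background on any array, and Lyz2, Cd68 and Cd3e were tested, with medians of -0.38 and 0.06. Of 3 endothelial markers, Cdh5 was tested and was well above background on the 2D arrays, and not on the 3D arrays. The summed signal, before scaling, of the 8 hepatocyte markers was 543963 and 435790 in 2D of iHep-1 and iHep-2 and 623685 and 713401 in 3D. That of the 4 fibroblast and mesenchymal markers was 9050 and 38705 in 2D and 20114 and 8985 in 3D. Vim, the brightest of the 4 on every array, weighs most in this sum, with differences of 1.11 in iHep-1 and -1.95 in iHep-2. In iHep-2, Pdgfra (0.65) and Col1a2 (0.22) were higher in 3D, and Pdgfrb (-3.33) was lower, its 3D signal not being well above background. The summed signal was 8524 and 28992 in 2D and 15282 and 12190 in 3D for the 6 biliary markers. It was 5952 and 660 in 2D and 26749 and 148 in 3D for Fabp4, 3344 and 11326 in 2D and 2585 and 3514 in 3D for the muscle markers, and 853 and 145 in 2D and 770 and 83.5 in 3D for the blood markers. The part of these markers in the members' differences was not tested.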

How the data were processed

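RNA of 4 iHep cultures (2D and 3D, n = 2 each, replicate 1 from iHep-1 and 2 from iHep-2) was amplified, labelled with Cy3 and hybridised to 1-colour Agilent arrays of design 014868, per the labels' protocols and the file headers. The deposited scanner files hold linear intensity values, among them a background-corrected processed signal, and the flags per spot (other values) that the authors' scanner software, Agilent Feature Extraction, wrote per the file headers; its version is 10.7.1.1 there and 9.5.1.1 per the submitters' processing notes. The authors' series table holds intensity values with equal distributions within each experiment (medians 26.3, 26.3, 22.6 and 22.6), whose direction and linear scale followed from Spearman correlations of at least 0.999985 with the processed signal; it was an alternative. Probe positions are on mm9 per the file headers; no annotation of that build was used here.

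Log2 processed signal was centred on each array's 75th percentile, spots of a probe were averaged, and probes well above background on at least 2 arrays were kept. The probe with the highest mean stood for a gene. Of 41174 probes, 24844 were named by accession and 7855 by symbol through a RefSeq table, and 8475 kept the name in the files. Groups were compared with limma 3.58.1 in R 4.3.3 (two-sided, Benjamini-Hochberg, 0.05; 2 residual and 1.58 prior degrees of freedom), checked on simulated data. The design text pairs arrays by experiment (correlation of deviations across genes 0.66), and the block is an alternative, as are other scalings, filters and probe rules and leaving out each array. Values on each array are given for members at least 2-fold apart in both experiments, 3 examples whose probes had the highest mean level, Cpt1a, Bdh1 and, chosen after their values were seen, Slc27a2, Cpt2, Abcd2 and Acot2; other lists are named by their 2 widest mean differences. Fgf21 and Vnn1 were named as well, after their values were seen, as the receptor targets lower in both preparations. The members and lists were chosen with earlier results of these data known.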

Additional observations from a re-analysis of the deposited data

Results flagged for a closer look

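For 9 members the difference between 3D and 2D had opposite signs in iHep-1 and iHep-2, against 5568 of all 16451 tested genes. With spike-in scaling 33 of the 42 had opposite signs, and the count over all genes was not made there. That scaling shifts the difference of every gene by -1.82 in iHep-1 and by -0.57 in iHep-2. Each preparation gave 1 array per culture, so the difference between preparations was not tested. Taken as the difference in iHep-2 minus that in iHep-1, on the log2 scale, the gap was 3.93 for Abcd2, the faint importer, and 2.31 for the transporter Slc27a2. The value of Abcd2 is not exact, since its 2D signal in iHep-2 was not well above background, and its other probe, well above background on all 4 arrays, gave 1.79. It was 1.44 for Acad11 and 1.27 for the synthetase Acsl1. It was -2.0 for Acot2, which was 0.27 higher in 3D of iHep-1 and 1.73 lower in 3D of iHep-2. Smaller gaps were 0.69 for Acads, 0.60 for Decr1, 0.20 for Cpt1b and -0.41 for Crot. In 0 members were both differences 2-fold or more in opposite directions, against 0.808% of all genes. Spike-in scaling shifts both preparations unequally and so raises all these gaps by the same amount. Their size and, for Crot, the sign therefore depend on the scale.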

How the results depend on the processing

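The 4 arrays and single arrays per culture and preparation limit all values; faint genes such as Abcd2 and Acot3 are limited by signal over background. Limma called 0 genes under every setting (unadjusted p under 0.05 for 1159 genes in the main setting, 2175 with the replicate block and 557 to 1272 without single arrays) except spike-in scaling, where it called 289 (67 higher and 222 lower, 0 of them members, prior degrees of freedom infinite). With quantile normalization, normexp background correction, the authors' series table, the other percentile, both filters on dim probes and the mean of probes, the members' median lay between 0.53 and 0.58; the median of all genes was 0.20 with no filter. No paired fit changed a member's call; the members' smallest adjusted p was 0.237 with the replicate block and 0.684 without. Leaving out single arrays, the median was 0.33 to 0.87 for all members, 0.15 to 0.70 for mitochondrial and 0.51 to 0.93 for peroxisomal ones. Counts over both preparations could not be made there, and gaps between preparations enter these values.

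With spike-in scaling, the medians were -0.62 (members), -0.74 (mitochondrial) and -0.37 (peroxisomal), 0 members were higher and 0 at least 2-fold higher in both preparations, 9 were lower in both, and 34 mean differences reversed: Slc27a2 -0.16, Acsl1 -0.88, Cpt1a -0.77, Cpt1b -1.18, Slc25a20 -0.56, Crat -0.65, Acadvl -0.63, Acadl -0.99, Acadm -0.39, Acads -0.96, Acad11 -0.68, Hadha -0.77, Hadhb -0.76, Echs1 -0.60, Hadh -0.29, Acaa2 -0.37, Eci1 -0.47, Eci2 -0.98, Decr2 -0.36, Etfa -0.86, Etfb -0.93, Etfdh -0.74, Acox2 -0.67, Acox3 -0.69, Hsd17b4 -0.33, Acaa1a -0.58, Acaa1b -0.37, Scp2 -0.049, Abcd3 -0.33, Pex11a -0.24, Acot1 -0.53, Acot4 -0.69, Acot8 -0.78 and Bdh1 -0.43. The other 8 were Fabp1 1.04, Ehhadh 0.65, Abcd2 0.22, Ech1 0.11, Cpt2 0.015, Crot -1.26, Decr1 -1.28 and Acot2 -1.92. The construction of that scaling shifts all genes alike. Cpt1b also reversed with quantile normalization (-0.091), the authors' series table (-0.091) and the mean of probes (-0.042), and Abcd2 with the filter on all 4 arrays (-0.041), where its other probe stood for it.

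Leaving out single arrays reversed 12 members, whose values ranged from -0.49 to 0.31 for Decr1, -0.20 to 2.27 for Slc27a2, -0.35 to 1.21 for Cpt1a, -0.50 to 0.37 for Crot, -0.11 to 0.53 for Acadl, -0.036 to 1.06 for Acad11, -0.22 to 3.04 for Abcd2, -0.022 to 1.56 for Bdh1, -0.26 to 0.89 for Acsl1, -0.076 to 0.11 for Cpt1b, -0.027 to 0.50 for Acads and -1.53 to 0.075 for Acot2. Of these 15 reversals, 7 came without 2D of iHep-2. The fits without an array had no block for preparation, so the gap between preparations enters their values. Within each preparation, Cpt1a, Acadl and Bdh1 were higher in 3D. The part of that gap in the other reversals was not tested.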
